A study of Mus musculus with 43 samples.

Results

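The Clu-positive cells of the irradiated crypt are the 402 of 1418 cells that carried at least 1 UMI of Clu in the 2 libraries sorted 56 h after irradiation. They comprised 188 of 719 cells in replicate 1 and 214 of 699 cells in replicate 2. The comparison cells were the 531 and 485 cells of the same libraries with 0 Clu UMIs. No cell had a Clu value between 0 and 1. A UMI is a molecular tag that counts 1 captured RNA molecule. Cells had at least 500 UMIs and at most 20% mitochondrial UMIs. The cells were chosen by their measured Clu UMIs, so Clu itself was left out of every sum, and its levels are given as a description. The cells came from Mki67tm1.1Cle/J mice, in which the proliferation gene Mki67 carries a red fluorescent reporter (Ki67-RFP). Crypts of the proximal part of the small intestine were dissociated, and 5500 RFP+ DAPI- cells were sorted for single-cell RNA-seq with the PIPseq T2 kit. Both irradiated libraries came from mice given 12 Gy to the whole body. The third library came from a non-irradiated littermate control with the same reporter. The sources used here give no age, sex or number of mice per library, so p-values of the crypt comparison do not measure the spread between mice. They rest on these 2 libraries, and edgeR took the spread of each gene from a trend over all genes. Irradiated crypts passed a 100 µm strainer and non-irradiated crypts a 70 µm strainer, and the strainer and irradiation cannot be told apart. Other libraries of the series used here were C57BL/6 organoids given 4 Gy on day 4, as 4 single-cell libraries (1 each at day 8 after 0, 6, 15 or 24 h of 1 ng/mL TGFB1, 0 h being vehicle) and 6 bulk libraries taken on day 7 after 24 h (3 vehicle, 3 TGFB1 at 2 ng/mL).

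Clu encodes clusterin, a secreted chaperone-like glycoprotein. In the mouse intestine, rare Clu-expressing crypt cells are known to expand after irradiation and to rebuild the stem cell compartment, a cell state often called the revival stem cell. Crypt repair is also known for a fetal-like programme with Ly6a (Sca-1), annexins and other genes downstream of YAP, whereas Lgr5 and Olfm4 mark the stem cells of the undamaged crypt.

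Clu-positive cells made up 26.1% of replicate 1 (95% Clopper-Pearson interval 23 to 29.5%) and 30.6% of replicate 2 (27.2 to 34.2%). In the non-irradiated library 7 of 1846 cells had Clu, a share of 0.379% (0.153 to 0.78%), and each of them had exactly 1 UMI. With at least 2 UMIs required, 88 and 121 irradiated cells remained, 12.2% and 17.3%. No non-irradiated cell reached 2 UMIs, and a count of 0, taken as at most 3 counts of the total, allows a share of up to 0.163% (exact upper bound 0.2%). At least 5 UMIs were seen in 40 and 46 cells, 1 UMI in 100 and 93 cells, and the highest value was 57 and 82 UMIs. Thinned to 2000 UMIs per cell, 60 of 719 cells (8.34%) and 69 of 699 cells (9.87%) stayed positive, against 0 of 1846 non-irradiated cells. Intervals and limits cover counting error only. Summed Clu was 49.8 and 74.4 CPM (UMIs of the gene scaled to a common total) in the irradiated libraries and 0.272 CPM in the non-irradiated library.

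The libraries held medians of 14399 and 13500 UMIs per cell, 13733700 and 12344800 UMIs in all, and the 3 crypt libraries shared 0 cell barcodes. Clu-positive cells were deeper than Clu-zero cells (medians 18482 against 13183 and 17517 against 11895 UMIs), so each was paired with an unused Clu-zero cell of the same library and like total, which brought the medians to 18482 against 18388 and 17517 against 17456. RNA free in the droplets can place a UMI in a cell that does not express the gene. Among 65 enterocyte-, enteroendocrine-, Paneth- and immune-like cells, 2 had Clu (3.08%, interval 0.375 to 10.7%, median 7080 UMIs). Goblet-like cells were left out of this count. In the similarly shallow cluster 3 (260 cells, medians 7727 and 7398 UMIs), 20.5% and 23.9% had Clu. That cluster was led by 7SK, ENSMUSG00002076650, Tmprss11a and genes with predicted-gene names. After matching, mitochondrial UMIs were slightly higher in Clu-positive cells (median 1.74% against 1.37% and 2.59% against 2.26%), and their part in the results was not tested.

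Clustering without Clu spread the Clu-positive cells over most of the irradiated crypt, with the highest share in 1 cluster. In cluster 4 (235 cells), led by Ly6d, Sprr1a, Tm4sf4, Lgals3, F3 and Il1rn, 43.8% of 96 cells and 55.4% of 139 cells were positive. Cluster 1 (356 cells, led by Dmbt1, Rbp7, Myl7 and Reg3g among others) followed with 35% and 31.6%. Cluster 2 (312 cells), led by the stem cell genes Olfm4, Smoc2 and Aqp4, had 23.4% and 18%, although its cells were the deepest. Cluster 5 (143 cells), led by genes whose UMIs are mostly shared with other genes, had 19% and 23.7%. The markers fixed for naming left these 5 clusters unnamed. Of 47 goblet-like cells, 6.45% and 37.5% were positive in the 2 libraries. The epithelial part of the cells' label was borne out by Epcam (1051 and 1033 CPM in the Clu-zero and Clu-positive cells of replicate 1 and 950.0 and 1013 CPM in those of replicate 2), while Ptprc, the pan-leukocyte marker, was too low to be tested. The kept cells included 40 enterocyte-like and 7 immune-like cells.

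**Figure D1:**
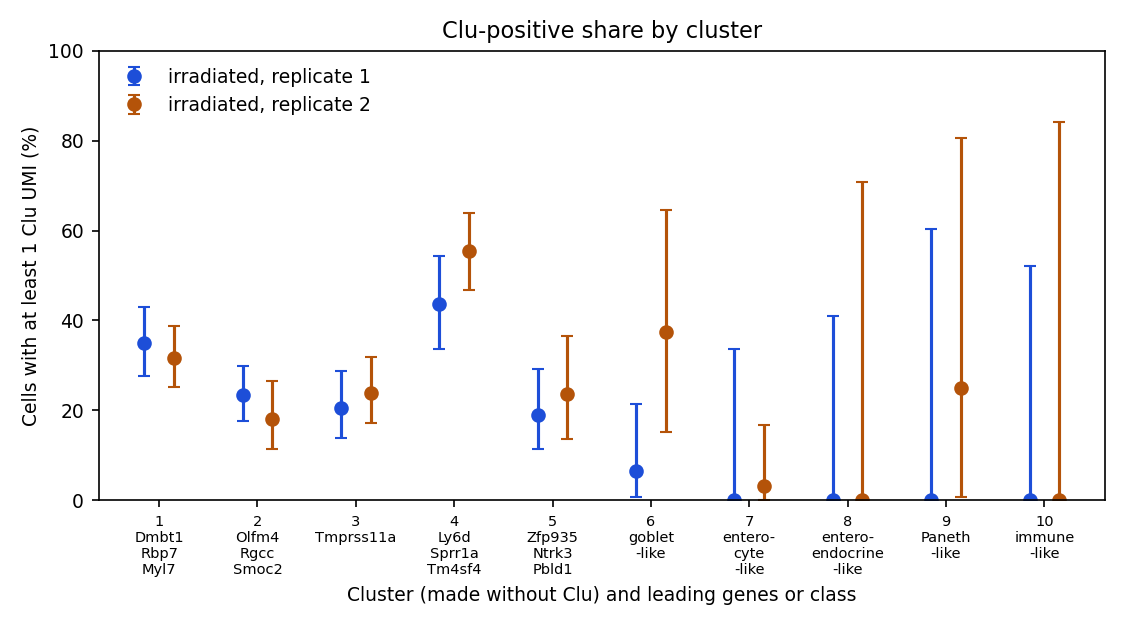
Share of cells with at least 1 Clu UMI (percent, y axis) in each cluster made without Clu (x axis, with leading genes or class), in the 2 irradiated libraries; bars are 95% Clopper-Pearson intervals of counting error. Cluster 4 has the highest share among the 5 large clusters in both libraries (43.8% and 55.4%), and the interval is wide in the small clusters.

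Clu-positive cells had higher levels of most regenerative genes tested, among them S100a6, Anxa1, Il1rn and Krt7, and lower levels of most enterocyte genes tested. edgeR's quasi-likelihood test on the 4 sums (2 classes in each of 2 libraries, library as a block) called 504 of 12206 genes higher (4.13%) and 516 lower (4.23%) in Clu-positive cells at a Benjamini-Hochberg adjusted p under 0.05, which is 8.36% in both directions. Of these, 487 and 496 had the same direction in each library. With that direction and a call in edgeR's robust fit also required, 474 (3.88%) and 485 (3.97%) were left. A rise or fall of at least 2-fold with the same direction in each library was found for 132 and 76 of the called genes. S100a6, a calcium-binding protein, stood at 1015 and 2038 CPM in the Clu-zero and Clu-positive cells of replicate 1 and 1464 and 3049 CPM in those of replicate 2 (log2 difference 1.02 ± 0.0464 SE, edgeR adjusted p = 1.31e-100). Alpi, intestinal alkaline phosphatase of the enterocyte brush border, stood at 34.9 and 10.8 CPM in the Clu-zero and Clu-positive cells of replicate 1 and 67.5 and 20.4 CPM in those of replicate 2 (log2 difference −1.73 ± 0.16 SE, edgeR adjusted p = 6.2e-24). Both genes separated the classes in each library. SE here is the absolute log2 difference divided by the square root of edgeR's F statistic. Its spread comes from the trend over all genes, so it does not measure how far the 2 libraries differ for a gene.

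These counts depend on the model. With 1 residual degree of freedom, edgeR drew the spread of every gene from the common trend, so a gene on which the libraries disagree can still be called; DESeq2 called 32 higher and 38 lower genes, and without the library block 1 and 0 passed. With entries split between genes left out, 391 and 285 were called, and 220 of the 516 lower genes and 68 of the 504 higher genes had over 50% of their UMIs in such entries. These are 42.6% of the lower and 13.5% of the higher genes, against 1584 of all 12206 genes tested (13%). Over 7 alternatives, a set put together after seeing the data (DESeq2, matching within cluster, matching within Ly6a status, the robust edgeR fit, split entries left out, named clusters left out, at least 2 Clu UMIs), 23 genes kept their call and direction. Among the 21 higher ones were S100a6, S100a11, Anxa1, Anxa3, Anxa5, Il1rn, Krt7, Krt8, Krt18, Edn1, Sat1, Btg2, Ahnak, Dstn, Tmsb4x, Fxyd3, Ptgr1, Malat1, mt-Rnr2 and ENSMUSG00002076650, which the files give without a symbol. Alpi was among the lower ones. These 7 alternatives leave out the fit without the library block, the thinned cells and the limit of at least 5 Clu UMIs. Without the block, S100a6 (edgeR adjusted p = 0.247), Il1rn (0.24), Krt7 (0.231) and Sat1 (0.39) kept their direction but were not called. The same held with thinned cells (0.0723, 0.241, 0.574 and 0.711). With at least 5 Clu UMIs these genes were called, whereas Ahnak was not (0.134).

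**Figure D2:**
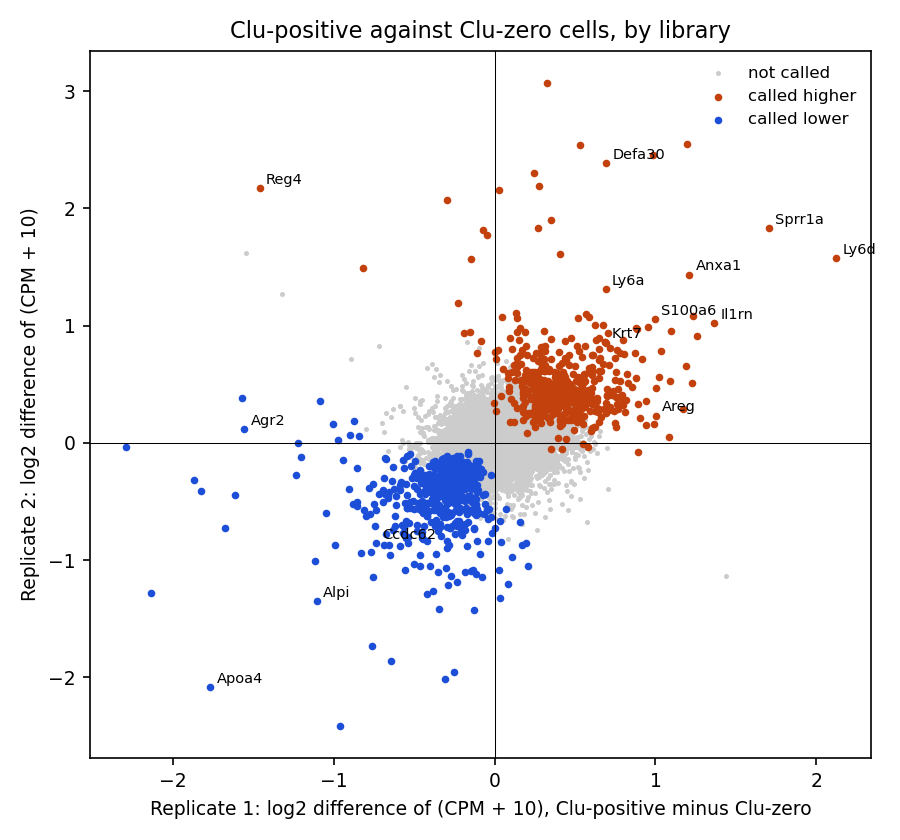
Log2 difference of (CPM + 10) between Clu-positive and depth-matched Clu-zero cells in replicate 1 (x axis) and replicate 2 (y axis), 1 point per tested gene; orange and blue are the 504 higher and 516 lower genes. Ly6a, S100a6, Anxa1 and Il1rn lie to the upper right in both libraries, whereas Reg4 and Agr2 lie on opposite sides of 0 in the 2 libraries.

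Of the 30 genes of the regenerative list, 25 were tested, and 21 of them (84%, against 4.13% of all genes tested) rose and 0 fell. The median log2 difference was 0.79 against 0.0035 over all genes tested. DESeq2 called 8 members of the list higher, and 32 genes higher in all. The largest rises were in genes that were nearly silent in Clu-zero cells. Sprr1a, a cornified-envelope precursor of squamous epithelia, stood at 2.65 and 31.3 CPM in the Clu-zero and Clu-positive cells of replicate 1 and 3.82 and 39.3 CPM in those of replicate 2, log2 difference 3.42 ± 0.25 SE, edgeR adjusted p = 1.81e-38. Ly6d, a surface protein of the Ly6 family, went from 5.78 to 58.7 and 4.05 to 31.9 CPM in the 2 libraries (log2 difference 3.16 ± 0.21 SE, edgeR adjusted p = 9.93e-46). In the non-irradiated library Ly6d and Sprr1a had 0 UMIs.

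The 4 annexins of the regenerative list, which bind membrane phospholipids in the presence of calcium, rose. Anxa1 stood at 9.39 and 34.9 CPM in the Clu-zero and Clu-positive cells of replicate 1 and 16.2 and 60.8 CPM in those of replicate 2 (log2 difference 1.88 ± 0.17 SE, edgeR adjusted p = 1.39e-25). Anxa5 went from 19 to 43.3 and 20.2 to 49.6 CPM (log2 difference 1.23 ± 0.16 SE, edgeR adjusted p = 6.6e-13) and Anxa3 from 45.7 to 86.9 and 69.3 to 136 CPM (log2 difference 0.93 ± 0.11 SE, edgeR adjusted p = 9.28e-16). Anxa2, the most abundant of them, rose less, from 689 to 849 and 769.8 to 1224 CPM (log2 difference 0.47 ± 0.0568 SE, edgeR adjusted p = 2.86e-14), and was not called when cells were matched within cluster or within Ly6a status (adjusted p from 4.59e-15 to 0.485 over the alternatives). Cells with an Anxa1 UMI made up 31.4% of Clu-positive against 11.7% of matched Clu-zero cells in replicate 1 and 42.5% against 15.9% in replicate 2. After thinning to 2000 UMIs these shares were 9.04% against 1.6% (17 against 3 cells) and 6.54% against 1.87% (14 against 4 cells). In replicate 2 the intervals overlap (3.62 to 10.7% and 0.512 to 4.72%).

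Il1rn, the secreted antagonist of the interleukin-1 receptor, stood at 32.5 and 99.4 CPM in the Clu-zero and Clu-positive cells of replicate 1 and 58.9 and 130.0 CPM in those of replicate 2 (log2 difference 1.33 ± 0.11 SE, edgeR adjusted p = 5.36e-30). S100a11, a partner of annexins, rose from 524 to 861 and 638 to 1235 CPM (log2 difference 0.82 ± 0.0583 SE, edgeR adjusted p = 1.46e-41), and Krt7, a keratin of simple ductal epithelia, from 181 to 298 and 198 to 366 CPM (log2 difference 0.79 ± 0.0764 SE, edgeR adjusted p = 2.24e-22). The classes were separated in the same direction by both libraries for all 3 genes. Ly6a, the marker of fetal-like crypt repair, rose from 227 to 372 and 195 to 501 CPM (log2 difference 1.02 ± 0.074 SE, edgeR adjusted p = 3.82e-40), more in replicate 2 than in replicate 1, and DESeq2 did not call it (adjusted p from 3.85e-40 to 0.361 over the alternatives). Further called members were the tissue factor gene F3 (1.06), the laminin chain gene Lamb3 (0.96), the alarmin Il33 (0.70), the actin-severing gelsolin Gsn (0.70) and Emp1 (0.44), all as log2 differences. Basp1 (log2 difference 2.47, 0.963 to 7.7 and 2.7 to 13 CPM) is counted among the 21 called members. It passed the filter on low counts through the Clu-positive cells, so its call is not read as support. Areg, which encodes the EGF receptor ligand amphiregulin, was at 97.7 and 205 CPM in the Clu-zero and Clu-positive cells of replicate 1 and 229 and 272 CPM in those of replicate 2. Its call (log2 difference 0.61 ± 0.0817 SE, edgeR adjusted p = 1.07e-11) rested on replicate 1 and was lost in the robust fit, in DESeq2 and with matching within cluster (adjusted p from 4.38e-15 to 1 over the alternatives).

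**Figure D3:**
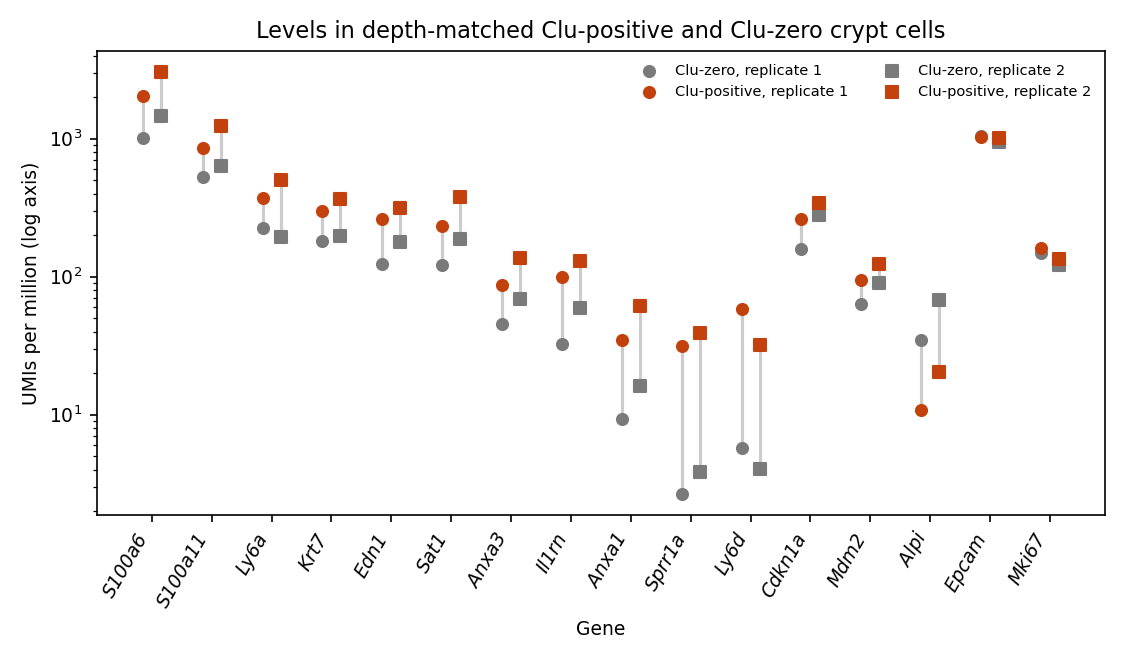
Level in CPM (y axis, log scale) of 16 genes in depth-matched Clu-zero (grey) and Clu-positive (orange) cells of replicate 1 (circles) and replicate 2 (squares), 1 sum per point. S100a6 to Ly6d are higher in the Clu-positive sums of both libraries, Alpi is lower, and Epcam and Mki67 lie close together.

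Promoters of the called genes were searched for the letters bound by the AP-1 family (TGANTCA) and by TEAD, the DNA-binding partner of YAP (GGAATG), on both strands; the words do not overlap each other. Of the 504 higher genes, 322 had a RefSeq promoter (GRCm38.p6, 250 bases before to 50 after the start). TGANTCA lay in 40 of these (12.4%), in 558 of 9054 promoters of tested genes (6.16%) and in 2565 of all 32851 promoters (7.81%). GGAATG lay in 58 (18.0%), 1283 (14.2%) and 4817 (14.7%). The promoters of S100a6, Krt7 and Areg hold neither word in this window, which says nothing of the factors. Shown, because they hold a match, are S100a11 (plus strand, chr3:93520246-93520545), which holds TGANTCA at 2 positions, Anxa1 (minus strand, chr19:20390622-20390921), with GGAATG read on the opposite strand 236 bases before the start, and Edn1 (plus strand, chr13:42301226-42301525), with it 207 bases before. Capitals mark the match. A match is a description of letters and not of binding.
S100a11: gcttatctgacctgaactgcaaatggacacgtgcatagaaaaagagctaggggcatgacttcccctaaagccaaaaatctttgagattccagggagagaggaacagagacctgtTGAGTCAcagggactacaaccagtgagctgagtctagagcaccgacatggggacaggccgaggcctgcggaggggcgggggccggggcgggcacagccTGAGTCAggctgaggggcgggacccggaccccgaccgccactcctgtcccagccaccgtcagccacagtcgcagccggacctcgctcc
Anxa1: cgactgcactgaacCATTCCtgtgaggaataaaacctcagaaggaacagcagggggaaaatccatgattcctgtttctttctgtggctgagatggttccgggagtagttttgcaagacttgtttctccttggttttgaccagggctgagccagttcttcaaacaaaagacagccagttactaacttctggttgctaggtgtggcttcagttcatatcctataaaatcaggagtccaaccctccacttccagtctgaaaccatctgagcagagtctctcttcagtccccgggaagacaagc
Edn1: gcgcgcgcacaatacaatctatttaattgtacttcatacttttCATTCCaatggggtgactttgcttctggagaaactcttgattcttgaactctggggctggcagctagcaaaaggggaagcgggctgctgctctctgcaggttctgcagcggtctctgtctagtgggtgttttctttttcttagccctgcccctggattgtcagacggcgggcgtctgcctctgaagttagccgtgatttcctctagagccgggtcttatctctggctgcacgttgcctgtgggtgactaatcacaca

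Outside the regenerative list, 3 keratins of simple epithelia rose, whereas Krt20, a keratin of mature enterocytes, fell (42.8 to 28.4 and 80.5 to 61.5 CPM; log2 difference −0.49 ± 0.13 SE, edgeR adjusted p = 0.00384; adjusted p from 0.00125 to 0.981 over the alternatives). The Krt20 difference changed sign with thinned cells, without named clusters and without cells holding immune or stromal UMIs. Of the 8 epithelial markers, Krt8 (2164 to 2769 and 2497 to 3392 CPM; log2 difference 0.38 ± 0.0415 SE, edgeR adjusted p = 8.55e-18), Krt18 (986 to 1506 and 1049 to 1647 CPM; log2 difference 0.61 ± 0.0511 SE, edgeR adjusted p = 2.1e-30), Krt19 (log2 difference 0.41) and the cell adhesion gene Cdh1 (0.22) rose and 0 fell. The 4 called are 50% of the list, against 4.13% of all genes tested. Cdh1 was not called by DESeq2 or with matching within cluster (adjusted p from 0.0143 to 1 over the alternatives). The large scaffold protein gene Ahnak went from 68.3 to 124 and 91.6 to 163 CPM (log2 difference 0.83 ± 0.0966 SE, edgeR adjusted p = 2.02e-15), and, named after their values were seen, the actin-binding genes Tmsb4x (0.51) and Dstn (0.47) also rose, given as log2 differences. Edn1, the precursor of the vasoconstrictor peptide endothelin-1, went from 123 to 263 and 179.5 to 317 CPM (log2 difference 0.94 ± 0.0797 SE, edgeR adjusted p = 5.37e-29). Sat1, an acetyltransferase of polyamine breakdown, went from 121 to 232 and 189 to 379 CPM (log2 difference 0.96 ± 0.0791 SE, edgeR adjusted p = 6.84e-31). ENSMUSG00002076650 went from 83.5 to 209.8 and 130.5 to 288 CPM (log2 difference 1.21 ± 0.0851 SE, edgeR adjusted p = 8.18e-43), and 54.2% of its UMIs were shared with other genes. Sprr2a1 (732 to 1152 and 892 to 1672 CPM) lost its call without such UMIs, which were 83.4% of its total (adjusted p from 3.52e-48 to 0.268 over the alternatives).

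Targets of p53, the DNA damage response factor, also rose in the comparison of all matched cells. Of 19 tested genes 14 (73.7%, against 4.13% of all genes tested) were called higher and 0 lower (median log2 difference 0.49). Cdkn1a, the cell cycle inhibitor p21, stood at 159.8 and 262 CPM in the Clu-zero and Clu-positive cells of replicate 1 and 279.6 and 344 CPM in those of replicate 2 (log2 difference 0.48 ± 0.0762 SE, edgeR adjusted p = 2.26e-08). Trp53inp1, a p53-induced stress protein, had the largest difference of the list, from 14 to 44.7 and 31.7 to 55.6 CPM (log2 difference 1.15 ± 0.15 SE, edgeR adjusted p = 2.8e-12), and was the only member that DESeq2 called. Phlda3 (0.59), Eda2r (0.82), Fas (0.92), Gdf15 (0.53), Bax (0.36) and Ccng1 (0.34) were among the others. Mdm2, the ubiquitin ligase that degrades p53, had 74.8% of its UMIs shared with other genes (63 to 94.1 and 89.3 to 123 CPM; log2 difference 0.50 ± 0.10 SE, edgeR adjusted p = 4.51e-05). With Clu-positive cells matched to Clu-zero cells of their own cluster, 0 of the 19 were called (median 0.17), and with matching within Ly6a status also 0 (median 0.38). The matching within cluster reached 199 of the 214 Clu-positive cells of replicate 2. Only 76 genes in all were called higher within cluster and 84 within Ly6a status. A count of 0 of 19 is thus near the share of all genes and is not read as a trait of the p53 targets. Of the 25 regenerative genes, 11 were called within cluster (median 0.41) and 14 within Ly6a status. Btg2, an antiproliferative gene that is not on the list, rose from 37.3 to 67.8 and 54.9 to 103 CPM (log2 difference 0.87 ± 0.12 SE, edgeR adjusted p = 3.17e-11).

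Part of the S-phase genes and Olfm4 were lower, and most stem cell and G2/M genes were not called. Mki67, on whose reporter the cells were sorted, stood at 149 and 162 CPM in the Clu-zero and Clu-positive cells of replicate 1 and 122 and 135 CPM in those of replicate 2 and was not called (log2 difference 0.12 ± 0.0878 SE, edgeR adjusted p = 0.554). Of the 15 S-phase genes, 6 (40%, against 4.23% of all genes tested) fell (Pcna, Tyms, Rrm2, Slbp, Hells and Ung) and 0 rose, with a median of −0.24. Pcna, the sliding clamp of DNA replication, went from 330.2 to 267 and 271 to 237 CPM (log2 difference −0.27 ± 0.0749 SE, edgeR adjusted p = 0.0069). Neither DESeq2 nor matching within cluster called any of the 15 (Pcna adjusted p from 0.00286 to 0.937 over the alternatives). Of the 15 G2/M genes, Hmgb2 alone fell, from 1207 to 1023 and 1010 to 809 CPM (log2 difference −0.30). This is 6.67% of the list, near the 4.23% of all genes tested. The 12 stem cell genes had a median of 0.10, with Lgr5 and Slc12a2 called higher and Olfm4 lower. These are 16.7% and 8.33% of the list, against 4.13% and 4.23% of all genes tested. Lgr5 was at 8.9 and 19.5 CPM in the Clu-zero and Clu-positive cells of replicate 1 and 6.75 and 10.1 CPM in those of replicate 2, with 46% of UMIs shared with other genes, and without those its log2 difference was 1.03 against 0.87 with them, no longer called (edgeR adjusted p = 0.0731, range 0.0103 to 0.564 over the alternatives). Olfm4 was at 878 and 798 CPM in the Clu-zero and Clu-positive cells of replicate 1 and 442 and 203 CPM in those of replicate 2, so the fall lay mainly in replicate 2, and the robust fit did not call it (adjusted p from 8.33e-20 to 1 over the alternatives). Ascl2 (41.2 to 44.3 and 25.6 to 29 CPM; edgeR adjusted p = 0.764) and Smoc2 (80.9 to 75.5 and 48.6 to 48.5 CPM; 0.845) were not called.

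Enterocyte genes were lower in Clu-positive cells, and fewer were called without the cells of named clusters. Of 15 genes 13 (86.7%, against 4.23% of all genes tested) fell and 0 rose (median log2 difference −1.02). Apoa4, an apolipoprotein of fat absorption, stood at 60.2 and 10.6 CPM in the Clu-zero and Clu-positive cells of replicate 1 and 479 and 106 CPM in those of replicate 2 (log2 difference −2.28 ± 0.10 SE, edgeR adjusted p = 1.93e-107), but 1 cell held 65.6% of its UMIs in the Clu-zero cells of replicate 1. The matched Clu-zero cells included 10 enterocyte-like cells in replicate 2 and 1 in replicate 1, against 1 and 0 Clu-positive cells. Once all cells of named clusters were left out, 4 of the 15 were called lower (median −0.085), and 503 genes were called lower in all. Of the list, Apoa4 (0.099), Apoa1 (0.20) and Krt20 (0.20) changed sign without a call. Guca2b (0.15), which is not on the list, did so too. Rbp2 (−1.82), Apoc2 (−2.39), Fabp1 (−1.02) and Lct (−3.16), as log2 differences of all matched cells, were called lower too. Single cells held large parts of their UMIs, 54.9% for Apoc2 and 43.7% for Fabp1 in the Clu-zero cells of replicate 1 and 45.8% for Rbp2 in the Clu-positive cells of replicate 2. The robust fit called neither Rbp2 nor Fabp1 (adjusted p = 0.597 and 0.792, range over the alternatives 8.19e-67 to 0.66 and 2.45e-29 to 0.919). Fabp1 differed by −1.87 and −0.32 and Apoc2 by −0.96 and −2.41 in replicates 1 and 2. The call of Alpi remained without named clusters (log2 difference −1.23) and also within cluster.

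Of the 10 Paneth genes, 8 (80%, against 4.13% of all genes tested) were called higher and 0 lower. However, 1 cell held most UMIs of 3 defensins in the Clu-positive cells of replicate 2. Defa30, a Paneth cell defensin, was at 25 and 46.7 CPM in the Clu-zero and Clu-positive cells of replicate 1 and 20.7 and 150.3 CPM in those of replicate 2, and 1 cell held 79.9% of the replicate 2 Clu-positive UMIs. Defa24 and Defa17 behaved alike (top cell 77% and 80.5%). The robust fit and DESeq2 called 0 of the 3 genes (Defa30 adjusted p from 3.76e-44 to 0.987 over the alternatives), and without depth matching they were lower in Clu-positive cells. Lyz1 (109 to 57.3 and 48.8 to 156 CPM) and Reg4 (log2 differences −1.46 and 2.17 in replicates 1 and 2) went in opposite directions in the 2 libraries. Among 10 goblet genes, Agr2 (856 to 284 and 455 to 494 CPM) and Tff3 (524 to 242 and 361 to 464 CPM) were called lower from replicate 1, where the matched cells held 13 goblet-like Clu-zero and 2 goblet-like Clu-positive cells, against 5 and 6 in replicate 2. The 2 called are 20% of the goblet list, against 4.23% of all genes tested. With matching within cluster Tff3 was called in the opposite direction (log2 difference 0.60, edgeR adjusted p = 0.000472, range over the alternatives 3.64e-06 to 1). Of 10 genes of the Reg and antimicrobial list, 3 (30%, against 4.23% of all genes tested) were called lower and 1 higher. The scavenger-like mucosal gene Dmbt1 (563 to 424 and 368 to 285 CPM; log2 difference −0.41 ± 0.0697 SE, edgeR adjusted p = 3.87e-07) fell in each library. Reg3b (1542 to 649.8 and 1823 to 1503 CPM) and Reg3g (1109 to 686 and 1164 to 1061 CPM), C-type lectins secreted against bacteria, were also called lower, in the robust fit neither was (Reg3b adjusted p from 4.3e-49 to 1, Reg3g from 9.01e-14 to 1 over the alternatives), and both were called within cluster. Lcn2, an iron-scavenging antimicrobial protein, had 2 and 14 UMIs in the Clu-zero and Clu-positive cells of replicate 1 and 3 and 21 in those of replicate 2, so it passed the filter on low counts through the Clu-positive cells, and its call is not read as support.

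Several further falls rested on UMIs that the counting had shared between genes. For Enah (133 to 87.6 and 98.1 to 41.1 CPM), Pbld1 (217 to 123 and 233 to 118 CPM) and Ccdc62 (719 to 427 and 522 to 284 CPM), 99.8%, 99.8% and 99.4% of UMIs were shared with other genes, so these levels are uncertain. The chaperone Hyou1 (−0.62) was lower with 37.1% of its UMIs shared with other genes, and without those it was not called (edgeR adjusted p = 0.804). Spink1, a trypsin inhibitor, was at 50.3 and 45.7 CPM in the Clu-zero and Clu-positive cells of replicate 1 and 238 and 104 CPM in those of replicate 2 (log2 difference −0.80 ± 0.10 SE, edgeR adjusted p = 7.4e-13). It was not called in the robust fit (adjusted p = 0.672, range over the alternatives 4.94e-13 to 1). Of 10 glutathione and xenobiotic genes, Gpx2 (0.13) and Gsta4 (0.54) rose and Gstm3 (−0.94) fell. These are 20% and 10% of the list, against 4.13% and 4.23% of all genes tested.

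Part of the genes of the signalling and stress lists were called, 25% to 42.9% of those tested as higher in the YAP, TGFB, immediate early, interferon and heat shock lists, against 4.13% of all genes. Of the 15 tested YAP targets, Ccn1 (44 to 84 and 49 to 63.7 CPM; log2 difference 0.64 ± 0.12 SE, edgeR adjusted p = 1.11e-05), Ccn2 (0.71), F3 and Ptpn14 rose and 0 fell, and of the 12 tested TGFB response genes the integrin chain Itgb6 (12.8 to 21.7 and 12.4 to 31.6 CPM; log2 difference 1.06 ± 0.20 SE, edgeR adjusted p = 1.01e-05), the receptor Tgfbr2 (0.58) and Pmepa1 (0.42, 91.7 to 91.9 and 75.1 to 135 CPM) rose and 0 fell. Smad7, a feedback inhibitor of TGFB signalling, was not called (15.9 to 20.7 and 18.7 to 15.8 CPM; edgeR adjusted p = 0.947). DESeq2 called 0 genes of either list. Of 14 immediate early genes 6 rose, among them Junb (0.44) and Jund (0.39), members of AP-1, and the stress regulator Klf6 (0.37), and of 16 interferon genes 5 rose, with Isg15 (9.87 to 8.42 and 24.7 to 49.2 CPM) against the direction of its call in replicate 1. DESeq2 and matching within cluster called 0 genes of these 2 lists (Junb adjusted p from 6.35e-06 to 0.935, Isg15 from 0.00347 to 0.966 over the alternatives). Of 8 heat shock genes Hspa1a and Hspa1b rose and Hspa8, Hspd1 and Hspe1 fell (37.5% lower), none of them called by DESeq2 or within cluster. Of 17 immune markers 2 passed the filter on low counts, Cd74 higher and Gzma lower. Their list summed to 105 and 25 CPM in the Clu-zero and Clu-positive cells of replicate 1 and 31.3 and 36.9 CPM in those of replicate 2. Stromal markers summed to 14.7 and 16.6 CPM and 14.6 and 21.1 CPM, with Dcn, Lum, Cdh5, Kdr and Tagln at 0. Leaving out cells with at least 2 immune or stromal UMIs reduced the calls to 172 higher and 199 lower.

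Levels were also read over the number of Clu UMIs per cell (0, 1, 2 to 4, and 5 or more), without matching and without a test. S100a6 stood at 1034, 1165, 2928 and 3124 CPM in replicate 1 and 1301, 1674, 3598 and 4380 CPM in replicate 2. Il1rn stood at 32, 63.2, 95.7 and 192 CPM in replicate 1 and 51.4, 88.3, 126 and 194 CPM in replicate 2, higher with each class in both libraries. Anxa1 stood at 13.9, 14.1, 48.3 and 69.8 CPM in replicate 1 and 17.1, 27.5, 57 and 113 CPM in replicate 2. In replicate 1 the cells with exactly 1 Clu UMI lay close to the cells with 0 for Anxa1 and for Ly6a, which stood at 223, 217, 627 and 452 CPM in replicate 1 and 204, 269, 573 and 747 CPM in replicate 2. Cdkn1a likewise stood at 172, 179.5, 347 and 362 CPM in replicate 1 and 287, 295, 363 and 395 CPM in replicate 2. Krt7 stood at 187, 192, 284 and 569.8 CPM in replicate 1 and 190.3, 260.5, 366 and 518 CPM in replicate 2. Olfm4 stood at 715, 1008, 647 and 463 CPM in replicate 1 and 402, 342, 145 and 72.8 CPM in replicate 2, falling over all classes in replicate 2 only. Mki67 had no order over the classes (156, 178, 149 and 136 CPM in replicate 1 and 141, 116, 157 and 136 CPM in replicate 2).

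**Figure D4:**
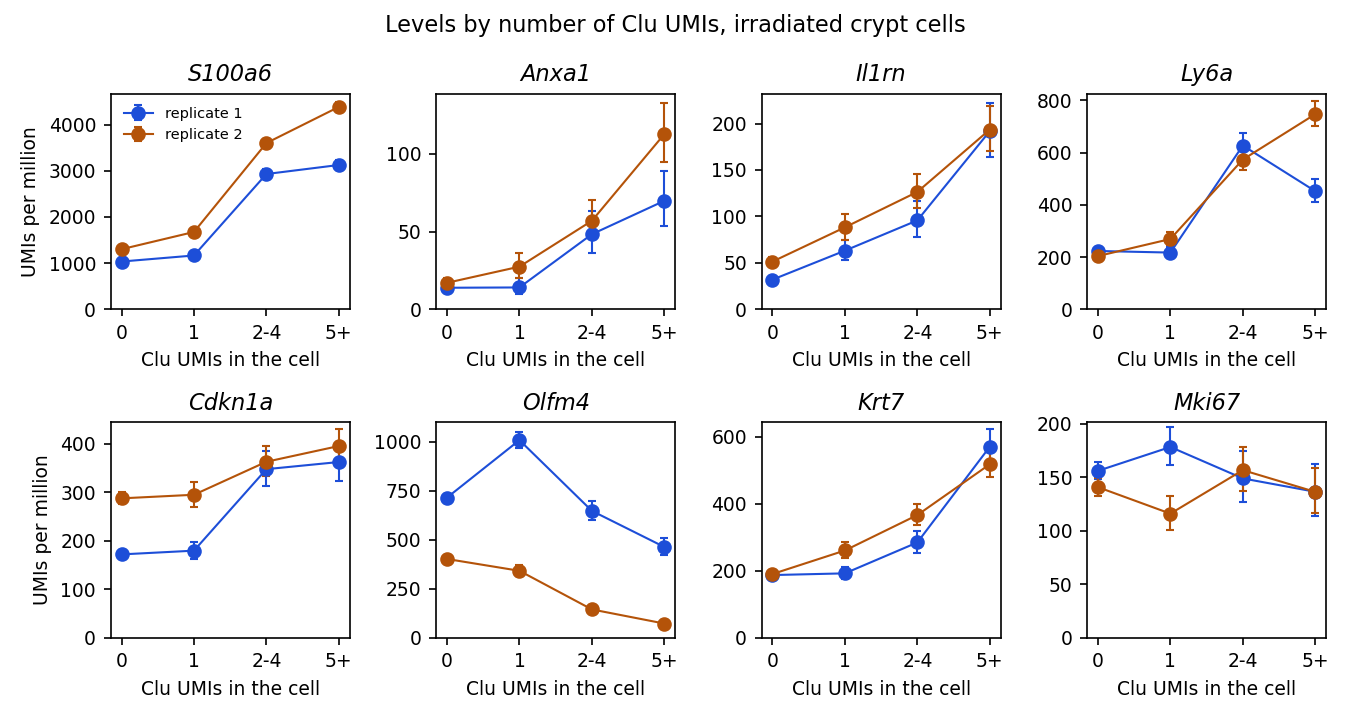
Summed level in CPM (y axis) of 8 genes in cells with 0, 1, 2 to 4 and 5 or more Clu UMIs (x axis), by library; bars are 95% exact Poisson intervals of counting error. S100a6, Anxa1 and Il1rn are highest at 5 or more UMIs in both libraries, and Mki67 shows no trend.

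The same genes were compared inside single clusters, as values of Clu-positive against Clu-zero cells that were not matched for depth (in cluster 4 medians of 19900 against 13058 UMIs in replicate 1 and 18123 against 15334 in replicate 2, in cluster 1 15442 against 15852 and 20840 against 12822, in cluster 5 27892 against 12964 and 26358 against 13588). In cluster 4 S100a6 was at 4556 against 3167 CPM in replicate 1 and 4965 against 1939 CPM in replicate 2, and Il1rn at 249.6 against 133 CPM in replicate 1 and 195 against 138 CPM in replicate 2. Cdkn1a was at 472 against 433 CPM in replicate 1 and 469.5 against 593 CPM in replicate 2 there, so its order differed between the libraries. In cluster 1 S100a6 was at 2234 against 1629 CPM in replicate 1 and 2631 against 1907 CPM in replicate 2 and Krt7 at 344 against 192 CPM in replicate 1 and 336 against 182 CPM in replicate 2. In cluster 2, led by Olfm4, S100a6 was at 557 against 523 CPM in replicate 1 and 557 against 664 CPM in replicate 2, with opposite orders in the 2 libraries. Clusters 1, 3, 4 and 5 had higher S100a6 in the Clu-positive cells of each library. Among matched cells, cluster 4 held 22.3% of Clu-positive and 10.6% of Clu-zero cells in replicate 1 and 36% and 14% in replicate 2. Cluster 2 held 25% and 34%, and 9.35% and 22.4%. With matching within cluster, edgeR called 76 genes higher and 57 lower (adjusted p under 0.05). In replicate 2 only 199 of 214 Clu-positive cells were matched so, as cluster 4 held 77 Clu-positive and 62 Clu-zero cells there. Median depth stayed apart in replicate 1 (18480 against 16445.5 UMIs) and was 16716 against 16495 UMIs in replicate 2. Of the 504 and 516 genes called without it, 68 and 51 were called there too, and 484 and 477 had the same sign.

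Clu-positive cells were mostly Ly6a-positive too. Of 188 and 214 Clu-positive cells, 150 (79.8%) and 166 (77.6%) had a Ly6a UMI, which were 30.7% of 488 and 36.0% of 461 Ly6a-positive cells. At matched depth 68.1% and 66.4% of Clu-zero cells had Ly6a. After thinning, the shares were 37.8% against 33% in replicate 1, where the intervals overlap, and 44.4% against 25.2% in replicate 2. In the non-irradiated library 16 of 1846 cells had Ly6a, and none of its 7 Clu-positive cells did. Over thinned cells, the genes whose levels were most like Clu among 5015 genes were S100a11 (Spearman 0.178 and 0.173 in the 2 libraries), S100a6 (0.148 and 0.227), Sprr2a2 (0.144 and 0.155) and Anxa2 (0.139 and 0.139). Sprr2a1, Fxyd3, Il1rn, Krt18, Krt19 and Tmsb10 followed. These correlations run over 719 and 699 cells that share a library and a depth, they are weak, and they are given as a description.

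The same split was read in the 4 organoid libraries, as values without a test, since each time had 1 library. Clu-positive cells numbered 184 of 2932 at 0 h, 806 of 4283 at 6 h, 1333 of 2890 at 15 h and 1563 of 2218 at 24 h. Cells were matched for depth as in the crypts, except that at 15 h the medians stayed apart (8677 against 7860 UMIs) and that at 24 h 655 Clu-positive cells were matched, as there were 655 Clu-zero cells. Values below are log2 differences of (CPM + 10) between Clu-positive and Clu-zero cells, whose medians over all genes tested were 0.062, 0.076, 0.11 and 0.12 at the 4 times. The regenerative list had medians of 0.92, 0.86, 1.24 and 1.30. S100a6 had 1.91, 1.20, 1.69 and 2.11 against 1.00 and 1.05 in crypt replicates 1 and 2, and Anxa1 had 2.18, 1.16, 2.43 and 2.87 against 1.21 and 1.44. Enterocyte genes such as Alpi (−0.31, −1.27, −1.34 and −0.87) were lower in organoid Clu-positive cells too. The stem list had medians of 0.60, 0.96, 1.54 and 1.68 in organoids and 0.10 in edgeR's crypt values, all positive. Its member Olfm4 and the S-phase list stood otherwise. Olfm4 had 0.53, 1.32, 2.16 and 3.10 in organoids against −0.14 and −1.08 in crypts, and the S-phase list had medians of 0.27, 0.68, 1.51 and 1.47. Cdkn1a had −0.21, −0.31, −0.41 and −0.23 against 0.68 and 0.29, and Btg2 −0.36, −0.25, −0.37 and −0.17 against 0.72 and 0.81. The difference between crypts and organoids was not tested.

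**Figure D5:**
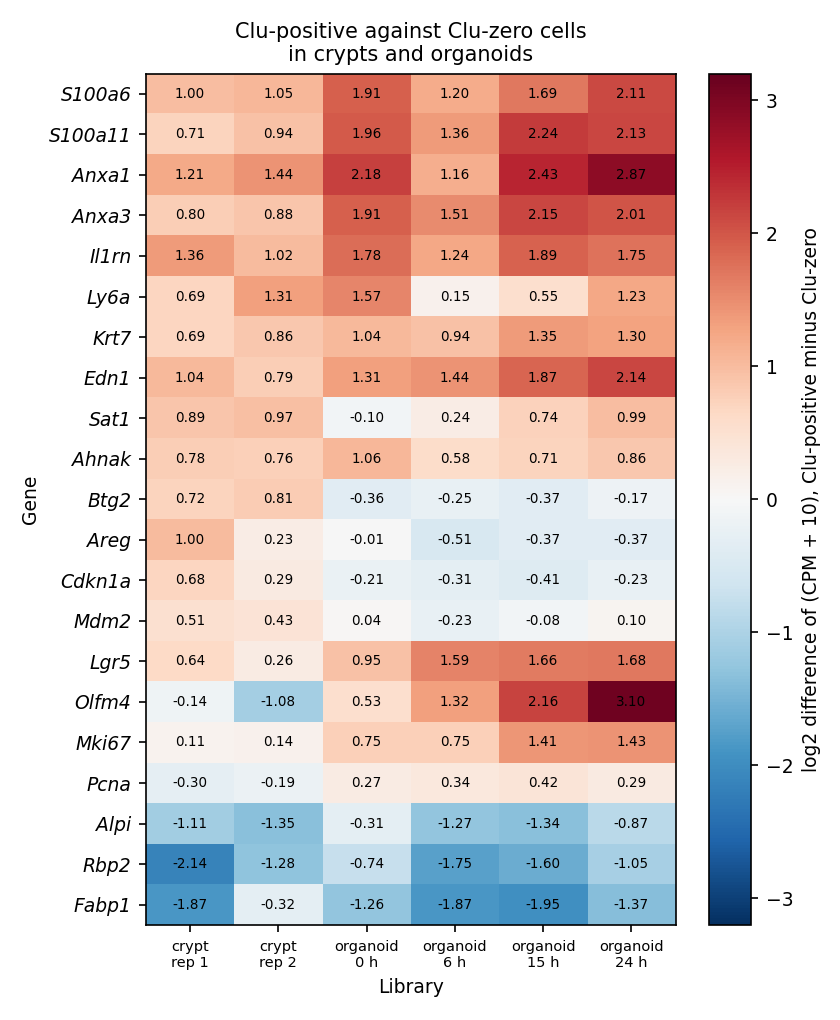
Log2 difference of (CPM + 10) between Clu-positive and depth-matched Clu-zero cells (colour and printed value) for 21 genes (rows) in the 2 irradiated crypt libraries and the 4 organoid libraries by hours of TGFB1 (columns). S100a6 to Krt7 and Edn1 are positive and Alpi to Fabp1 negative in all 6 libraries, whereas Btg2, Cdkn1a and Olfm4 differ in sign between crypts and organoids.

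Irradiated D7 organoids, which the choice of cells did not use, gave the change of the same genes with TGFB1. limma on log2(FPKM + 1) called 35.8% of 11258 genes higher and 39.7% lower with TGFB1 (adjusted p under 0.05, 3 libraries a group). Of the 504 genes higher in Clu-positive crypt cells, 393 were tested in the organoids by symbol, and 314 of these (79.9%) were higher with TGFB1 and 40 (10.2%) lower, with a median log2 change of 0.98 against −0.028 over all genes. Of the 516 lower genes 371 were tested, of which 249 (67.1%) were lower and 62 (16.7%) higher (median −0.43). No chance level was computed for these shares. Il1rn had 17, 18 and 16.9 FPKM with vehicle and 204, 199 and 225 FPKM with TGFB1 (log2 change 3.52, limma adjusted p = 1.24e-11), and S100a6 had 143, 149.7 and 171 FPKM with vehicle and 1369, 1340 and 1592 FPKM with TGFB1 (log2 change 3.21, limma adjusted p = 2.68e-09). The 2 groups did not overlap for either gene. Ly6d had 8.5, 7.76 and 8.23 FPKM with vehicle and 159, 160.4 and 173 FPKM with TGFB1 (log2 change 4.17, limma adjusted p = 5.19e-12), and Ly6a changed less, with 30.1, 28.8 and 28.3 FPKM with vehicle and 53.8, 48.3 and 46.4 FPKM with TGFB1 (log2 change 0.75, limma adjusted p = 4.95e-07). Of the 21 raised regenerative genes 20 were higher with TGFB1 and 0 lower, and of the 6 lowered S-phase genes 6 were lower. The 14 raised p53 targets were split into 7 higher and 3 lower, and the 13 lowered enterocyte genes into 6 higher and 5 lower, Apoa4 rising (1542, 1493 and 1646 FPKM with vehicle and 3523, 3464 and 3540 FPKM with TGFB1; log2 change 1.17, limma adjusted p = 2.37e-09). In bulk samples, fewer cells of a type and less RNA per cell cannot be told apart.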

How the data were processed

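Single-cell RNA-seq of 7 libraries and bulk RNA-seq of 6 libraries were used; members and gene lists were chosen with earlier results of these data known. Each single-cell library was deposited as a matrix of expected counts (UMIs per gene and cell). Entries that are not whole, read here as UMIs split over several genes, held 21.8 and 20.5% of UMIs in the irradiated crypt libraries. The bulk table deposited by the authors holds FPKM, whose read depth is unknown. The submitters' processing notes name STARsolo, STAR 2.7.10a, TopHat2 2.1.0, Cuffnorm 2.2.1 and Cuffdiff 2.2.1, without roles, and do not tie a genome build to each file.

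Cells with at least 500 UMIs and at most 20% mitochondrial UMIs were kept, 719 of 727 and 699 of 721 barcodes in the irradiated crypt libraries and 1846 of 1849 in the control. Each Clu-positive cell was matched to the unused Clu-zero cell of its library nearest in log total UMIs less Clu (largest gap 0.051 and 0.32 log2 units). UMIs without Clu were summed per class and library and rounded, and edgeR 4.0.16 (glmQLFit, TMM, filterByExpr, two-sided, library as block, because both classes come from the same library) was fitted over all genes. On simulated data for this comparison (12206 genes) it recovered 64 of 100 genes changed 2-fold and 100 of 100 changed 4-fold, with 4 false calls. The simulated sums were independent, with the same dispersion for every gene and without a library effect or single cells that hold many UMIs. The false calls therefore give no error rate for the real calls. limma 3.58.1 (trend, robust) was fitted to log2(FPKM + 1) after dropping genes whose mean was under 1 FPKM. Cells were clustered without Clu with scanpy 1.11.5 and leidenalg 0.10.2 (2000 variable genes, 30 components, 15 neighbours, resolution 0.6). Scrublet called 2 doublets in each irradiated library, which were kept except in an alternative.

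A call is a Benjamini-Hochberg adjusted p under 0.05. Genes named were the 15 largest rises and 10 largest falls among called genes with a mean of at least 50 CPM, one direction in both libraries and no predicted, mitochondrial or ribosomal name, a fixed panel, members of the lists, and genes that held over 7 alternatives, picked after seeing the values. Alternatives changed the normalization, filter, matching, thresholds, cells and test. Other bulk tables and ATAC peaks were not used here. Some items are not reported here.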

Additional observations from a re-analysis of the deposited data

Results flagged for a closer look

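Genes named in the text were marked for a closer look where Clu-positive cells differed from Clu-zero cells in one direction in both crypt libraries and in the other direction in all 4 organoid libraries. The difference between crypts and organoids was not tested, and its causes were not tested either. No group had the 4 samples that the check for outlying libraries needs. Organoid values and single-library crypt values are log2 differences of (CPM + 10), and the combined crypt value is edgeR's.

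Btg2 had a crypt log2 difference of 0.87 (0.72 in replicate 1, 0.81 in replicate 2) and −0.37 to −0.17 in the organoids. It is an antiproliferative gene. Ccdc62 had a crypt log2 difference of −0.83 (−0.74 in replicate 1, −0.85 in replicate 2) and 0.11 to 0.35 in the organoids. Its UMIs were almost all (99.4%) shared with other genes. Areg had a crypt log2 difference of 0.61 (1.00 in replicate 1, 0.23 in replicate 2) and −0.51 to −0.014 in the organoids. It encodes amphiregulin, and its crypt difference lay mainly in replicate 1. Olfm4 had a crypt log2 difference of −0.62 (−0.14 in replicate 1, −1.08 in replicate 2) and 0.53 to 3.10 in the organoids. It is a stem cell marker, and its crypt fall lay mainly in replicate 2. Cdkn1a had a crypt log2 difference of 0.48 (0.68 in replicate 1, 0.29 in replicate 2) and −0.41 to −0.21 in the organoids. It encodes the cell cycle inhibitor p21.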

How the results depend on the processing

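The counts of 504 higher and 516 lower genes moved by over 1.5 times under several alternatives. They were 133 higher and 173 lower with no filter on low counts, 32 higher and 38 lower with DESeq2, 1 higher and 6 lower with cells thinned to 2000 UMIs, 181 higher and 205 lower with at least 2 Clu UMIs, 67 higher and 53 lower with at least 5, 172 higher and 199 lower without cells holding immune or stromal UMIs, 76 higher and 57 lower with matching within cluster and 84 higher and 85 lower with matching within Ly6a status. The cause was not tested. Without the replicate block, which pairs the 2 classes of a library, 1 higher and 0 lower genes were called. In that fit the difference between libraries enters the spread, and its part in the drop was not tested. A further 3 alternatives were chosen after seeing the data: the robust fit (496 higher and 544 lower), named clusters left out (495 higher and 503 lower) and split entries left out (391 higher and 285 lower, fewer genes tested). DESeq2 size factors, no matching, the mitochondrial limit, doublets left out and whole parts of UMIs gave 354 to 501 higher and 379 to 539 lower genes. With 1 library left there is no count. The shares of Clu-positive cells fell from 26.1% and 30.6% to 8.34% and 9.87% with thinning and to 12.2% and 17.3% with at least 2 UMIs.

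Of 787 tested values of 47 named genes under the alternatives, 528 kept direction and side of the threshold, 213 kept the direction without a call and 46 changed sign, 27 of them in genes called in the comparison. Of 94 values from 1 library, which have no test, 62 moved by less than the spread between the libraries, 27 by more, and 5 changed sign. These values are log2 differences of (CPM + 10) set against edgeR's combined value, which are unlike measures. Btg2 (0.72 and 0.81 in replicates 1 and 2 against 0.87) counted as moved in both, so such a move need not be a disagreement between the libraries. Signs changed as follows, as log2 differences: without depth matching, Defa30 (−1.48), Defa24 (−1.27), Defa17 (−1.13), Smoc2 (0.019), Lyz1 (−1.07); with cells thinned to 2000 UMIs, Defa30 (−0.075), Cxadr (−0.016), Krt20 (0.091), Ascl2 (−0.25), Smoc2 (0.080), Lyz1 (−0.21), Muc2 (−7.38), Isg15 (−0.23); with matching within cluster, Defa30 (−0.096), Defa17 (−0.22), Guca2b (0.067), Smoc2 (0.49), Lyz1 (−0.12), Epcam (−0.017); with matching within Ly6a status, Defa30 (−1.84), Defa24 (−1.54), Defa17 (−1.45), Smoc2 (0.054), Lyz1 (−0.78), Epcam (−0.017); with at least 5 Clu UMIs, Defa24 (−0.33), Defa17 (−0.17), Mki67 (−0.022), Ascl2 (−0.27), Lyz1 (−0.59), Epcam (−0.072); with at least 2 Clu UMIs, Ascl2 (−0.12), Epcam (−0.086); with split entries left out, Defa17 (−0.14); without named clusters, Apoa4 (0.099), Apoa1 (0.20), Guca2b (0.15), Krt20 (0.20), Muc2 (−0.18); without cells holding immune or stromal UMIs, Krt20 (0.069), Smoc2 (0.018), Smad7 (−0.059), Isg15 (−0.27); in DESeq2, Muc2 (−0.32); without doublets and the deepest cells, Smad7 (−0.011); with at most 10% mitochondrial UMIs, Epcam (−0.0033). In those 5 genes the libraries alone gave Lyz1 −0.82 to 1.49, Muc2 −1.55 to 1.62, Smad7 −0.15 to 0.25, Isg15 −0.11 to 0.77 and Epcam −0.025 to 0.091. Causes of the sign changes were not tested. Thinned values rest on 60 and 69 positive cells.

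For TGFB1 in organoids the 314 raised genes called higher became 315 with a replicate block, 314 with a pseudocount of 0.1 FPKM, 322 with no filter and 309 to 314 when each library was left out. Same-numbered bulk libraries deviated with correlations of 0.075, 0.21 and 0.024 across genes and each vehicle library correlated best with its own number in 2 of 3 cases, so the numbers were not taken as pairs.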
